A study of Mus musculus with 6 samples.

Results

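Keratins, desmosome proteins and tight junction proteins build the mechanical and sealing apparatus of epithelia, and their transcripts were followed here in the prospective lens of mouse embryos with and without Pax6. The group holds every gene of the array annotation whose symbol is Krt, Cldn, Dsg, Dsc, Pkp or Tjp followed by digits alone, except the endothelial claudin gene Cldn5, together with Jup, Ocln, Epcam, Esrp1 and Esrp2. By symbol alone this gave 79 genes, read by 113 probes, of 17711 named genes on the array. Dsp, which encodes desmoplakin, matched no named probe and is not analysed here. A further 11 genes whose symbol ends in a letter, such as Krt6a and Dsg1a, fall outside the rule.

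The tissue was prospective lens, labelled surface ectoderm in 3 Pax6-/- embryos and lens placode in 3 wild-type embryos, cut by laser microdissection. All were at embryonic day E10.25 on a mixed FVB and 129 background, and each array carried amplified RNA of the 2 prospective lens areas of 1 embryo. Pax6 is a paired-box transcription factor needed for eye development; the labels describe the Pax6-/- allele no further. On the Pax6 probe used for the gene, the arrays read 9.81, 9.95 and 10.13 in Pax6-/- and 10.54, 10.19 and 10.73 in the wild type, without overlap and without passing the adjusted threshold. The other Pax6 probes were also lower in Pax6-/- (-0.99 ± 0.30 and -0.82 ± 0.25), and whether any of the 3 lies in the altered part of the gene is not given in the labels. Levels below are normalised log2 intensities, changes are Pax6-/- minus wild type, each with the standard error (SE) that limma gave it, and a gene was tested where a probe was above background, at a detection p-value under 0.05, on at least 3 of the 6 arrays.

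Keratins assemble into intermediate filaments as pairs of a type I and a type II chain. In embryonic and simple epithelia the usual pair is Krt8 with Krt18, while Krt5 with Krt14 marks the basal layer of stratifying epidermis and Krt1 with Krt10 its differentiated layers. Desmosomes anchor these filaments at cell contacts: desmogleins and desmocollins span the membrane, and plakoglobin (Jup), plakophilins and desmoplakin join them to keratin. Tight junctions seal the space between cells with claudins and occludin, which Tjp scaffold proteins hold on the cytoplasmic side. The lens placode is a thickened patch of the head surface ectoderm, the same sheet that elsewhere becomes epidermis.

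Promoter windows could be read for 18 of the 27 tested members from RefSeq (build GRCm38.p6), each from 250 bases before to 50 bases after an annotated start. The 4 printed here belong to the 3 simple-epithelial keratin genes measured on every array, and to Epcam, whose arrays were lower in Pax6-/- embryos. Capitals mark matches to GCCNNNGGC, a palindromic motif bound by AP-2 factors, the transcription factors of surface ectoderm. Both strands were searched, and sequences run 5′ to 3′ along the gene's strand.
Krt7 (chr15:101412153-101412452, + strand): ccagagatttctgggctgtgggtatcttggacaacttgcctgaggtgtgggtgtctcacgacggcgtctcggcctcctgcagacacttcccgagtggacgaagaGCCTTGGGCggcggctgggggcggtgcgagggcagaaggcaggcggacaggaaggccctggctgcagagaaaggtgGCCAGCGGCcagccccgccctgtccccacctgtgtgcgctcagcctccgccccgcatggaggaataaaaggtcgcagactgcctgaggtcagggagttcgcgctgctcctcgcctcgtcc
Krt18 (chr15:102027966-102028265, + strand): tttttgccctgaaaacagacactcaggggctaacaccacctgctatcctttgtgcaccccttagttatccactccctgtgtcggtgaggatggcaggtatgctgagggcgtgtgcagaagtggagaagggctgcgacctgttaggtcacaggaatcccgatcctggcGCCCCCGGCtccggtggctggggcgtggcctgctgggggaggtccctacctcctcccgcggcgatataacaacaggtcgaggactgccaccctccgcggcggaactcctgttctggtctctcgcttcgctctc
Krt8 (chr15:102004293-102004592, - strand): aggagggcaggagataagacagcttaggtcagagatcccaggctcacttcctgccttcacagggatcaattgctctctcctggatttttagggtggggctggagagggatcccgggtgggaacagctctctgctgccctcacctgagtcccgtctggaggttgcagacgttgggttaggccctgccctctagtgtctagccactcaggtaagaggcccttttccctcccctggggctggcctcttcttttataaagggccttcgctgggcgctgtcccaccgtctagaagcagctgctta
Epcam (chr17:87635729-87636028, + strand): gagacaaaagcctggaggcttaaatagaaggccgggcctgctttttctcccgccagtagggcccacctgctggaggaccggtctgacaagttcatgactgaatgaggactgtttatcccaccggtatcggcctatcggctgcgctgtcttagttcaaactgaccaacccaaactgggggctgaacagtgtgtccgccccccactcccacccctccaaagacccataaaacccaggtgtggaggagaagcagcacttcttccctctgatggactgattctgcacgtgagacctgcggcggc

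The Krt7 window held 2 matches, the Krt18 window 1, and the Krt8 and Epcam windows none. The motif stood in a window of 6 of the 18 members with one (33.3%), against 18.5% of 27025 genes. By window these were 8 of 25 (32%), against 16.6% of 32851 windows of the same length, and 3 of the 8 are overlapping Cldn12 windows that hold the same matches. The grainyhead motif AACCGGTT, its own reverse complement, stood in 0 of the 25 windows and in 0.146% of all. A match is a description of the letters and no evidence of binding. The windows of Pkp3, Cldn23, Cldn8, Dsc2, Dsg2, Dsg3, Dsg4, Esrp1 and Krt17 were not used here.

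Most genes of the group did not pass the detection filter in this tissue. Of the 79 genes, 40 were above background on no array, 12 on some arrays without passing the filter, and 27 were tested. Of the 17711 named genes on the array, 9195 were tested. The probes of the group above background numbered 36, 38 and 35 of 113 on the Pax6-/- arrays and 42, 31 and 29 on the wild-type arrays. These are 31% to 33.6% of the group's probes in Pax6-/- and 25.7% to 37.2% in the wild type, where 35% to 37.8% and 36.2% to 40.2% of all probes were detected. A probe not above background gives only an upper bound on the transcript.

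**Figure D1:**
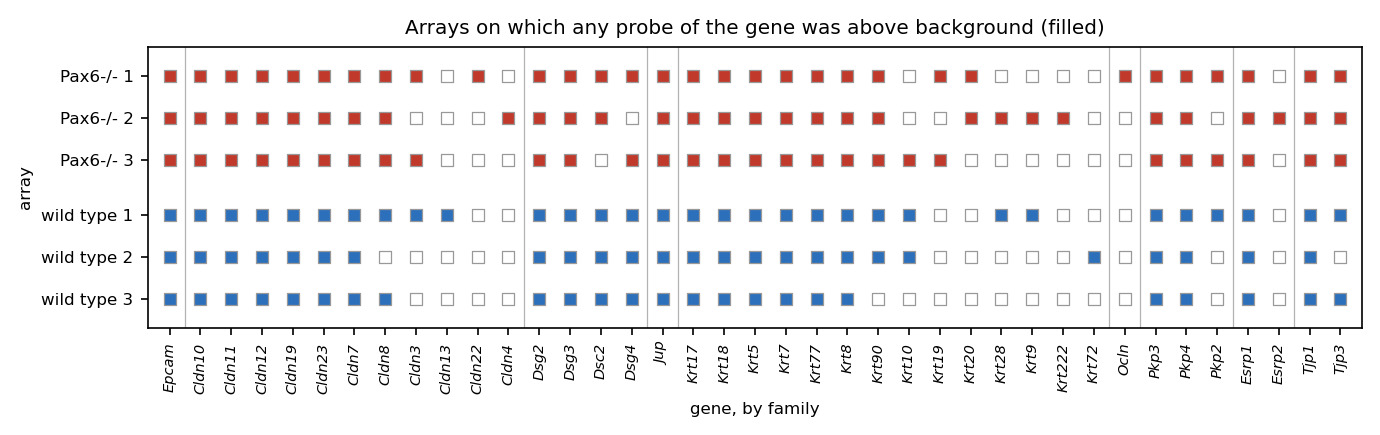
Each column is a member gene above background on at least 1 array, grouped by family, and each row is an array, with the 3 Pax6-/- arrays above the 3 wild-type arrays. A filled square means that any probe of the gene had a detection p-value under 0.05. Krt7, Krt8, Krt18, Pkp3, Pkp4, Epcam and Esrp1 are filled on all 6 arrays, while Krt19, Krt20 and Cldn4 are filled on Pax6-/- arrays alone, on no more than 2 of the 3. Cldn13 and Krt72 are each filled on 1 wild-type array alone.

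Among the keratins, 8 of 43 genes were tested. By chromosome these were 2 of the 22 genes on chromosome 11, which carries the type I cluster, and 6 of the 21 on chromosome 15, which carries the type II cluster and the type I gene Krt18. The epidermal keratins Krt1, Krt2, Krt14, Krt15 and Krt16 were above background on no array, nor were the corneal keratin Krt12 and the hair keratins Krt31, Krt34 and Krt35. Among the claudins 8 of 19 genes were tested, and 8, among them Cldn1 of the epidermal barrier, were above background on no array. Of the desmosomal cadherins, Dsg2, Dsg3, Dsg4 and Dsc2 were tested, while Dsc1 and Dsc3 were above background on no array. Occludin (Ocln) and the splicing factor Esrp2 were each above background on 1 Pax6-/- array and no wild-type array. Krt19, a keratin of simple epithelia and of periderm, was above background on 2 of 3 Pax6-/- arrays and no wild-type array, and did not pass the filter. It read 6.81, 4.78 and 5.34 in Pax6-/- against 4.78, 4.77 and 4.76 in the wild type. With the wild type set at the lowest signal above background, the means differed 1.39-fold. The Pax6-/- mean includes the second array, which was not above background. The values of Krt19 are given because they stood out once seen.

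No member passed the limma test at an adjusted p of 0.05, against 12 of 13805 genes or unnamed probes tested (0.0869%). Here and below, "all genes" means this whole set, of which 9195 are named genes and the rest unnamed probes. The members are all named genes, and shares over named genes alone were not taken. At an unadjusted p under 0.05, 4 members were higher and 2 lower in Pax6-/-, which is 22.2% of the 27 tested, beside 8.95% of all genes (4.24% higher and 4.7% lower). The arrays of the genotypes did not overlap for 8 members, 6 of them higher and 2 lower in Pax6-/-, or 29.6% beside 15.3% of all genes (8.52% higher and 6.81% lower). A member that passed the filter only through the genotype where it is brighter had to differ, so these shares were also taken over the 18 members above background on every array with the probe used. Of these, 5 had an unadjusted p under 0.05 (27.8% beside 7.63% of all such genes) and 7 did not overlap (38.9% beside 15.5%). The median change was 0.29 over the 27 members and 0.07 over all genes. Positive changes numbered 20 of the 27, beside 7730 of all 13805. Over those above background on every array they numbered 13 of 18, beside 5307 of 8947. With arrays scaled to a common median, which moves the median of all genes to -0.196, 12 of the 27 were positive and 20 lay above that median. An exact permutation test of 3 arrays against 3 has 0.1 as its smallest p. The members were chosen with earlier results of these data known, so the shares above are a description and no test of the group.

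**Figure D2:**
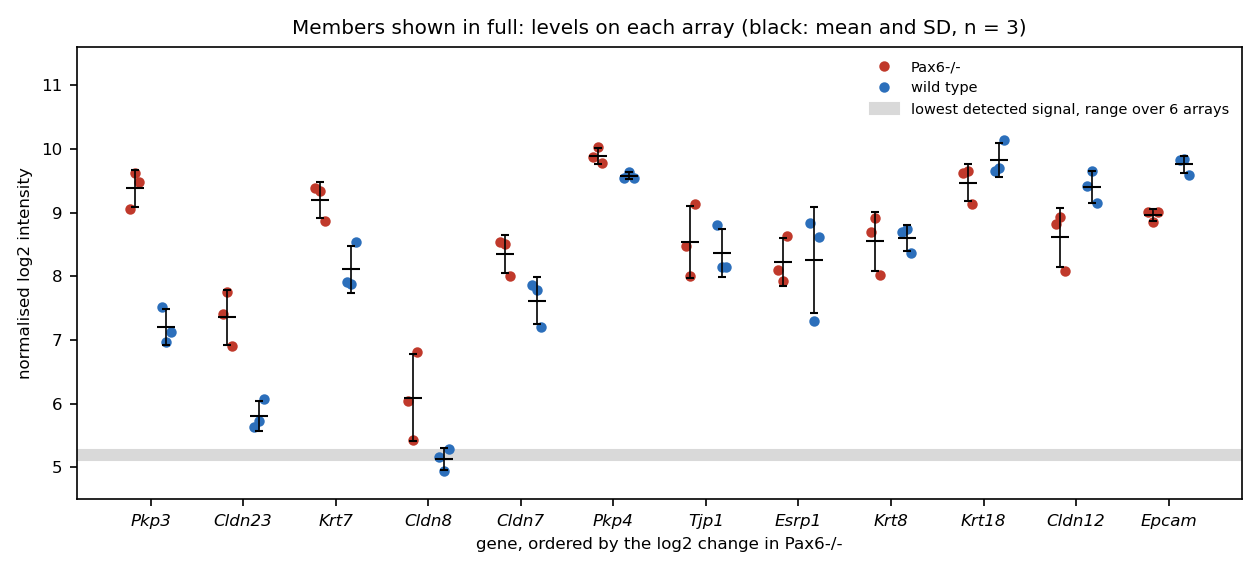
Normalised log2 intensity on each array for the 12 members shown in full, with Pax6-/- arrays in red to the left of wild-type arrays in blue, black bars for the mean and SD (n = 3 each), and a grey band for the lowest signal above background. The arrays do not overlap for Pkp3, Cldn23, Krt7, Cldn8, Cldn7 and Pkp4, which are higher in Pax6-/-, nor for Cldn12 and Epcam, which are lower.

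Of the simple-epithelial keratins, the genotypes were apart for Krt7 and overlapped for Krt8 and Krt18. Krt7, a type II keratin of simple and ductal epithelia, read 9.39, 9.34 and 8.87 in Pax6-/- against 7.91, 7.88 and 8.53 in the wild type. Every Pax6-/- array was above every wild-type array, and the means differed 2.13-fold (1.09 ± 0.30, limma adjusted p = 0.313). Krt8, the type II chain of the common embryonic pair, read 8.70, 8.92 and 8.02 in Pax6-/- against 8.70, 8.74 and 8.36 in the wild type. The genotypes overlapped, and the 95% interval of the change, -0.82 to 0.71, leaves room for differences of either sign. Krt18, its type I partner, read 9.62, 9.65 and 9.14 in Pax6-/- against 9.65, 9.70 and 10.14 in the wild type, with a change of -0.36 ± 0.27 and an interval of -1.02 to 0.31. For all 3 genes the third Pax6-/- embryo was the lowest of its genotype, as it was for 12 of the 27 tested members, these 3 included. The difference between the changes of these keratins was not tested.

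The remaining tested keratins gave wide or near-background values. Krt5, the basal-layer keratin, ranged from 6.10 to 7.66 in Pax6-/- and from 5.31 to 8.49 in the wild type, so the embryos of a genotype differed far more than the genotypes (0.29 ± 0.88). Krt90 read 5.53, 6.62 and 8.19 in Pax6-/- against 5.34, 6.24 and 4.88 in the wild type (1.29 ± 0.74). Krt17, a keratin of epidermal appendages and wounded epidermis, and Krt77 stayed within 5.16 to 5.92 on all 6 arrays, close to the lowest signal above background (5.11 to 5.27). Krt10, the differentiation keratin, was above background on 1 Pax6-/- and 2 wild-type arrays, with a mean of 5.14 ± 0.19 in Pax6-/- and 5.15 ± 0.14 in the wild type (SD, n = 3 each).

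Pkp3, a plakophilin that ties desmosomal cadherins and desmoplakin to keratin filaments, had the lowest p of the group and ranked 34 among all 13805. It read 9.05, 9.62 and 9.47 in Pax6-/- against 7.51, 6.97 and 7.13 in the wild type. All Pax6-/- arrays were above all wild-type arrays, by a gap several times the SD of either genotype. The means were 9.38 ± 0.30 in Pax6-/- and 7.20 ± 0.28 in the wild type (SD, n = 3 each), a 4.52-fold difference with a 95% interval of 1.5 to 2.85 on the log2 scale (limma adjusted p = 0.091). Behind each value stood 31 to 48 beads, with a bead standard error of 1.85% to 4.21% of the signal. The raw signals, before any normalisation, were 496 to 810 in Pax6-/- and 146 to 315 in the wild type.

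Other desmosome genes gave smaller or less even differences. Pkp4, a relative of the plakophilins found at desmosomes and adherens junctions, read 9.87, 10.03 and 9.77 in Pax6-/- against 9.54, 9.64 and 9.54 in the wild type on its probe with the highest signal, without overlap and with a small change (0.32 ± 0.21, limma adjusted p = 0.739), which was 0.007 with arrays scaled to a common median. Its 3 other kept probes went 2 ways in the fit over every probe. One, without overlap, gave 2.39 ± 0.67, but was above background on 1 wild-type array alone, beside 3 Pax6-/- arrays. The others gave -1.23 ± 0.59 and -0.69 ± 0.62. None of the 3 passed the adjusted threshold, which 0.062% of all probes did. The labels do not say which transcripts these probes read. Pkp1, the epidermal plakophilin, was above background on no array, and Pkp2 was on 2 Pax6-/- arrays and 1 wild-type array.

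Dsg2, the desmoglein of simple epithelia, read 7.40, 8.0 and 7.08 in Pax6-/- against 8.92, 4.84 and 7.83 in the wild type. The second wild-type embryo was not above background, while the other wild-type embryos lay within or above the range of the Pax6-/- values, and the change (0.30 ± 1.04) has an interval of -2.27 to 2.86. A second Dsg2 probe, above background on every array, gave 6.64, 6.56 and 6.62 in Pax6-/- against 5.79, 6.07 and 6.13 in the wild type, without overlap (0.62 ± 0.23, adjusted p = 0.504 in limma over all probes), and another gave 0.70 ± 0.66. Dsg3, a desmoglein of stratified epithelia, stood at 6.45 ± 0.17 in Pax6-/- and 6.13 ± 0.42 in the wild type (SD, n = 3 each), with overlapping arrays. Jup was above background on 3 Pax6-/- arrays and 1 wild-type array on its probe with the highest signal, at 7.43, 5.39 and 6.69 in Pax6-/- against 7.20, 5.17 and 4.97 in the wild type. Its second probe, above background on every array, gave 0.23 ± 0.25. The changes were -0.13 ± 0.47 for Dsc2 and 0.06 ± 0.21 for the hair desmoglein gene Dsg4.

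**Figure D3:**
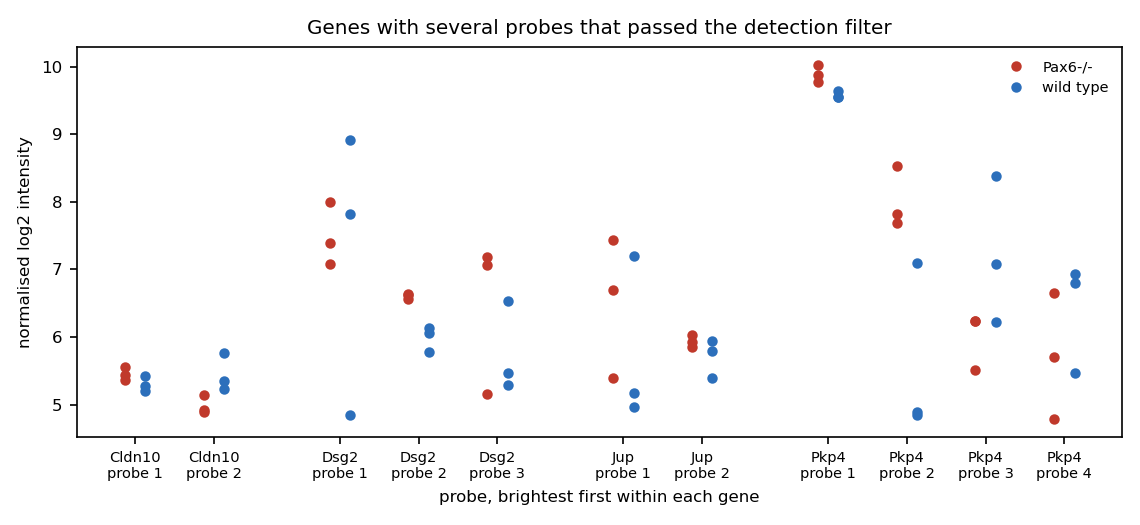
Normalised log2 intensity on each array for the 4 members with several probes that passed the detection filter, Pax6-/- in red left of wild type in blue, probes ordered by mean signal within a gene. The 3 probes of Dsg2 and the 2 of Jup have positive changes, while those of Pkp4 and Cldn10 differ in sign.

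Claudins were higher and lower in Pax6-/- by gene. Cldn23 read 7.41, 7.75 and 6.90 in Pax6-/- against 5.63, 5.72 and 6.07 in the wild type. All Pax6-/- arrays were above all wild-type arrays, 2.92-fold on the means (1.54 ± 0.30, limma adjusted p = 0.189). Cldn7, an epithelial claudin that binds Epcam, read 8.54, 8.51 and 8.0 in Pax6-/- against 7.87, 7.78 and 7.20 in the wild type, again without overlap (0.73 ± 0.30, limma adjusted p = 0.56). Cldn8, a claudin best known from the kidney tubule, read 6.05, 5.43 and 6.80 in Pax6-/- against 5.15, 4.94 and 5.28 in the wild type, where 2 of 3 arrays were above background (0.97 ± 0.39, limma adjusted p = 0.552).

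Cldn12, a claudin linked to calcium permeability in the gut, went the other way, at 8.82, 8.93 and 8.08 in Pax6-/- against 9.42, 9.64 and 9.15 in the wild type. The genotypes did not overlap, and the change was -0.79 ± 0.32 (limma adjusted p = 0.548). Cldn3 and Cldn11 varied among embryos of a genotype. Cldn3, a sealing claudin, stood at 9.21 in the first Pax6-/- embryo and at 5.13 and 5.41 in the others, against 6.32, 4.85 and 4.80 in the wild type. Cldn11, the claudin of myelin and Sertoli cells, read 8.55, 6.27 and 9.70 in Pax6-/- against 7.38, 6.34 and 7.85 in the wild type. Cldn10 and Cldn19 stayed between 5.16 and 5.56 on every array with the probe used. A second Cldn10 probe was above background on all 3 wild-type arrays and no Pax6-/- array, at least 1.16-fold lower in Pax6-/-. That probe passed the filter through the wild type alone, so it had to be lower in Pax6-/-. Its wild-type values of 5.76, 5.24 and 5.35 lay near the lowest signal above background (adjusted p = 0.693 in limma over all probes). The Cldn10 probe used had a change of the other sign (0.15 ± 0.21).

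Epcam, the epithelial adhesion molecule that stabilises claudins, read 9.01, 8.86 and 9.01 in Pax6-/- against 9.83, 9.84 and 9.60 in the wild type. Every Pax6-/- array was below every wild-type array, with SDs of 0.09 in Pax6-/- and 0.14 in the wild type, and the means differed 1.74-fold (-0.80 ± 0.21, limma adjusted p = 0.308). Epcam thus stood lower in the same embryos in which its partner Cldn7 stood higher. The scaffold gene Tjp1, which encodes ZO-1, read 8.48, 8.0 and 9.14 in Pax6-/- against 8.81, 8.14 and 8.15 in the wild type, with overlap and an interval of -0.76 to 1.11. Tjp3, on the probe used, was above background on 2 arrays of each genotype and spanned 5.03 to 8.78 in Pax6-/- and 4.92 to 7.54 in the wild type. Its other probe was above background on 2 Pax6-/- arrays and no wild-type array. Esrp1, an RNA-binding factor that sets epithelial splice patterns, read 8.11, 7.92 and 8.64 in Pax6-/- against 8.84, 7.30 and 8.62 in the wild type, with an interval of -1.20 to 1.14.

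**Figure D4:**
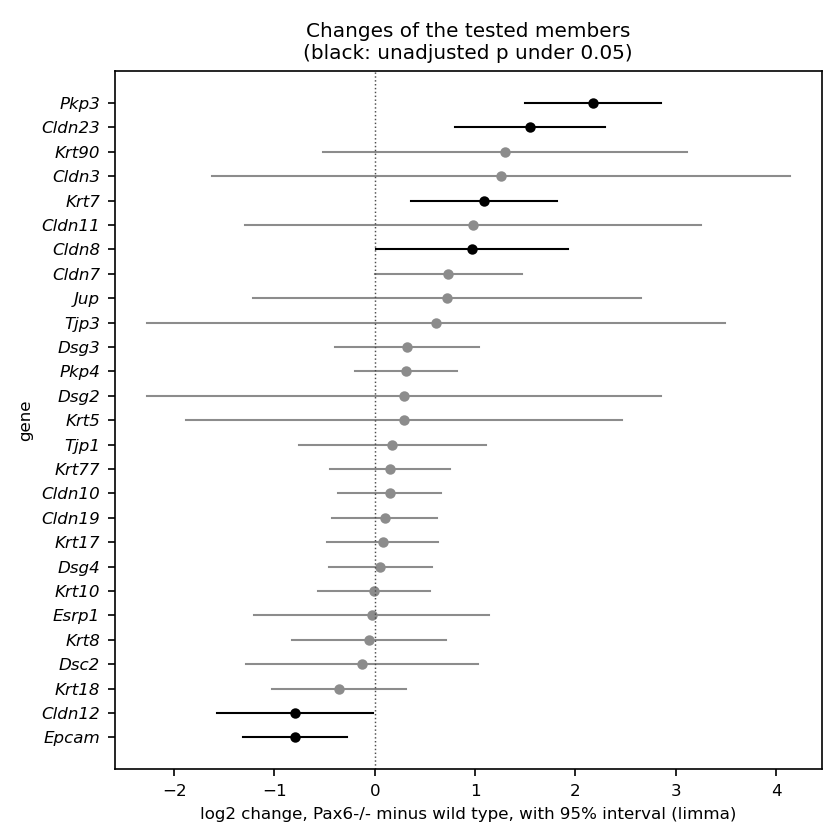
Log2 change, Pax6-/- minus wild type, with the 95% interval of the limma fit for the 27 tested members, ordered by change. Pkp3, Cldn23, Krt7 and Cldn8 lie above 0 and Cldn12 and Epcam below 0 with intervals that leave out 0, and none passes after adjustment over all genes. Cldn3, Tjp3 and Dsg2 have the widest intervals.

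The spread between embryos differed by gene. Over members above background on all arrays the median SD within a genotype was 0.29 in Pax6-/- and 0.27 in the wild type, beside 0.35 and 0.41 over all such genes. Cldn3, Dsg2, Tjp3, Cldn11, Krt5, Krt90 and Jup each had an SD above 1 in at least 1 genotype. The bead standard error of these 7 genes was at most 5.61% of the signal, and it leaves out dissection and amplification, whose part was not tested. Lower RNA per cell and fewer epithelial cells in a cut cannot be told apart in these bulk samples.

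Other genes of the same junctions were read from lists by role, and none of their members passed after adjustment over all genes. Beside 8.95% of all genes, 3 of 15 adherens junction genes (20%) and 3 of 23 tight junction partners and polarity genes (13%) had an unadjusted p under 0.05. Of the adherens junction genes, Cdh2 (N-cadherin, -3.10 ± 0.41) and Cdh4 were lower and Ctnna2 (2.87 ± 1.14) higher, and the median change was -0.14. Cdh4 was above background on no Pax6-/- array, passed the filter through the wild type alone, and was at least 2.28-fold lower in Pax6-/-. Without Cdh4, 1 of 14 adherens junction genes was higher and 1 lower at an unadjusted p under 0.05 in limma, and the median was -0.13. Ctnna2 was above background on 1 wild-type array, and its genotypes overlapped. Of the tight junction partners, the adhesion receptor gene Cxadr (0.86 ± 0.24) and Ybx3 (1.16 ± 0.43) were higher and Jam3 (-1.36 ± 0.38) lower, with a median of 0.04. The 3 tested partners of the desmosome and cornified envelope, named because they are so few, had changes of 2.04 ± 0.84 for Perp, a desmosomal membrane protein, 0.25 ± 0.68 for Evpl and 0.06 ± 0.53 for Pnn. Of 7 hemidesmosome genes and 8 other intermediate filament genes 0 had an unadjusted p under 0.05 in limma, with medians of -0.06 and -0.20.

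Of 19 epithelial regulators, 4 were higher and 0 lower at an unadjusted p under 0.05 in limma (21.1%, beside 8.95% of all genes), with a median of 0.53. Without Grhl3, which passed the filter through the Pax6-/- arrays alone, 3 of 18 were higher and the median was 0.32. The 4 were the AP-2 factor Tfap2b (1.61 ± 0.24), the epidermal factors Grhl3 (at least 3.15-fold higher in Pax6-/-, with no wild-type array above background) and Ovol2 (1.41 ± 0.34), and Zeb1 (2.06 ± 0.65), a repressor of epithelial genes that was above background on 1 wild-type array. The other AP-2 factors tested, named for that reason, had negative changes. Tfap2c was lower in Pax6-/- without overlap (-0.78 ± 0.34, limma adjusted p = 0.599), and Tfap2a overlapped (-0.17 ± 0.48). All 8 markers of surface ectoderm and epithelium were tested, 4 with positive changes. Their median change was 0.40, and -0.17 without Grhl3. Their mean level per array was 7.87 to 8.64 in Pax6-/- and 7.50 to 7.80 in the wild type. These means include Grhl3, so the gap between them is no measure of the list as a whole. Cdh1, the E-cadherin gene, stood at 9.56 in Pax6-/- and 9.76 in the wild type.

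**Figure D5:**
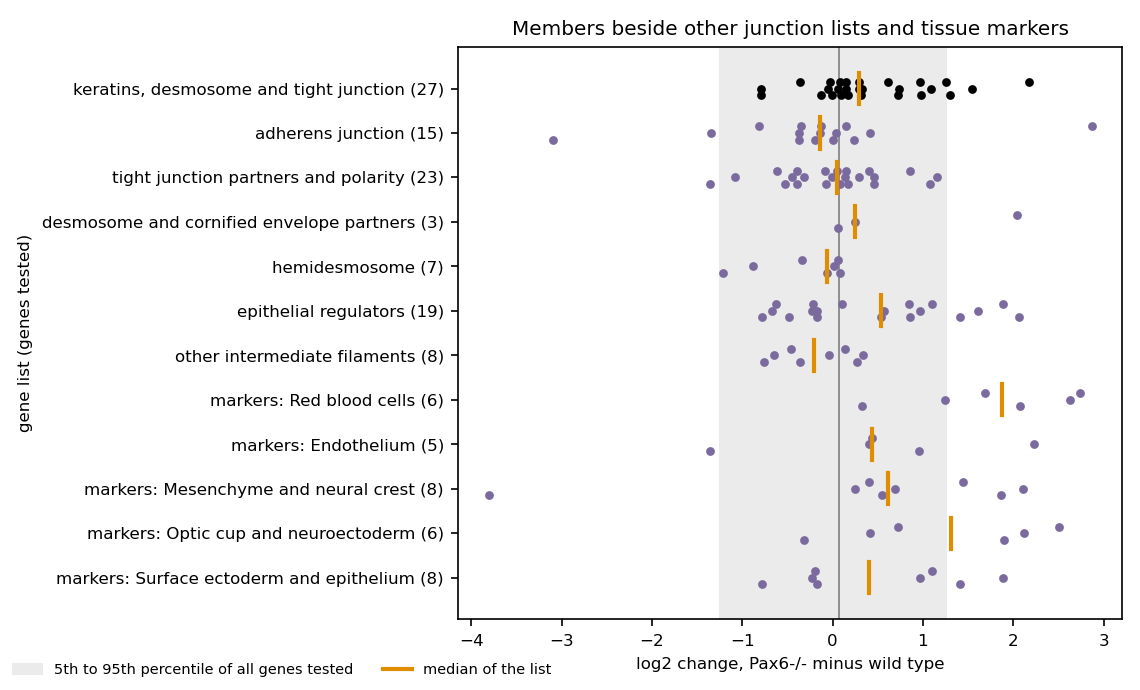
Log2 change, Pax6-/- minus wild type, of each tested gene (points) in the keratin and junction group (black) and in other lists, with the list median in orange. The grey band holds the 5th to 95th percentile of all genes tested, -1.24 to 1.25. The 27 members have a median of 0.29 and the 6 red blood cell markers one of 1.88.

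Markers of other tissue also differed between the cuts, most of them with positive changes, and none passed after adjustment. Of all 13805 genes or unnamed probes tested, 7730 had positive changes. All 6 tested red blood cell markers had positive changes, and their mean level per array was 8.61 to 8.87 in Pax6-/- and 5.93 to 7.82 in the wild type. At an unadjusted p under 0.05 these were Slc4a1 (2.74 ± 0.46, above background on 1 wild-type array), Hba-x (2.63 ± 0.82), Hba-a1 (1.68 ± 0.64) and Car2 (1.24 ± 0.36). Of the 9 such markers on the array, Klf1, Gata1 and Epb42 were not tested. Of 6 optic cup and neuroectoderm markers 5 had positive changes, with array means of 6.92 to 7.61 in Pax6-/- and 5.98 to 6.27 in the wild type. Zic1 (2.51 ± 0.70), Otx2 (2.12 ± 0.57) and Rax (1.90 ± 0.50) had an unadjusted p under 0.05, Rax with 1 wild-type array above background. Mitf was the marker with a negative change (-0.31 ± 0.41). The 8 mesenchyme and neural crest markers had 7 positive changes and overlapping array means, 6.91 to 7.96 in Pax6-/- and 6.61 to 7.31 in the wild type. Pdgfra, a receptor gene of mesenchyme, went the other way with the largest change of that list (-3.81 ± 0.71), at 5.11, 7.96 and 6.71 in Pax6-/- against 10.19, 10.42 and 10.60 in the wild type. Prrx2 (2.10 ± 0.56) and Col5a1 (1.45 ± 0.33) were higher, and Twist2, with no wild-type array above background, was at least 2.96-fold higher in Pax6-/-. Twist2 passed the filter through the Pax6-/- arrays alone and is among the 7 positive changes and in the array means. The 5 endothelial markers had 4 positive changes and overlapping array means, 6.56 to 7.13 in Pax6-/- and 6.16 to 6.59 in the wild type. Cldn5 was higher (2.23 ± 0.38) and Egfl7 lower (-1.35 ± 0.38). Tyrobp, the 1 macrophage marker tested of 3 on the array, had a negative change (-0.24) and gave array values of 5.09 to 5.58 in Pax6-/- and 5.09 to 5.98 in the wild type. Defining markers above background on no array were Gata1 and Epb42 of red cells, Tie1 of endothelium, Sox10 and Foxc1 of neural crest and mesenchyme, Hes5 of neuroectoderm and Ptprc of macrophages. The part of such tissue in the values of Pkp3, Cldn23, Krt7, Cldn7, Epcam and Cldn12 was not tested.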

How the data were processed

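Per the labels' protocols, 15 ng of total RNA per embryo from laser-microdissected 10 micron sections was amplified to cDNA, biotin-labelled and hybridised to 1 bead array per embryo, all 6 on 1 slide. For every probe the main deposited table gives an average intensity over its beads before normalisation, with bead number, bead standard error and a detection p-value, per the file headers. GenomeStudio is the program named in the submitters' processing notes. A second deposited table of processed intensity values, some below 0 and made by steps not given in the sources used here, served as an alternative; each column ranks probes as its own array does (Spearman correlation 1).

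From the raw intensities, neqc of limma 3.58.1 (R 4.3.3) made log2 levels (normexp with negative controls inferred from the detection p-values, offset 16, quantile normalisation), which shrinks changes of dim genes. Detection at p under 0.05 on at least 3 arrays kept 17751 of 46632 probes. The brightest kept probe stood for a gene, giving 13805 genes or unnamed probes. Of all probes 29976 had 1 symbol, 10 several and 16646 none. The comparison used lmFit and eBayes without covariates, Benjamini-Hochberg adjusted over all genes, with 4 residual degrees of freedom, and the script was tested on simulated data. Each replicate is an embryo, as the series' design text has it. Per array 35% to 40.2% of probes were above background, with a median of 37 beads per value. Where a genotype was not above background on any array, a fold is "at least", against the higher of its own signal and the lowest signal above background. Members with an unadjusted p under 0.05 or among the 10 highest mean signals, and list genes with an unadjusted p under 0.05 (at most 4 a list), are named with values. Alternatives changed the normalisation, offset, background correction, detection filter, probe choice, source table, array weights, replicate block and each array in turn. The members and lists were chosen with earlier results of these data known.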

Additional observations from a re-analysis of the deposited data

How the results depend on the processing

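The count of members passing an adjusted p of 0.05 was 0 under each of the 17 other settings run, and the 12 members shown in full gave 202 values under them, of which 193 kept their direction and 9 reversed. The reversed values belong to 3 genes with changes near 0. With 1 array left out, Krt8 ran from -0.24 to 0.21, above 0 without Pax6-/- array 3 or wild-type array 2. Tjp1 was -0.20 with arrays scaled to a common median, where the median of all genes was -0.196, and ran from -0.12, without Pax6-/- array 3, to 0.44 with 1 array left out. Esrp1 was 0.016 with array weights and ran from -0.51 to 0.26 with 1 array left out, above 0 without Pax6-/- array 1 or 2 or wild-type array 1 or 3. Pkp3 ranged from 1.83 to 2.34, with limma adjusted p from 0.082 to 0.395, Cldn23 from 1.07 to 1.77, Krt7 from 0.74 to 1.30 and Epcam from -1.13 to -0.75. Other genes moved by over 1.5 times: with a common median Pkp4 was 0.007, Cldn7 0.35 and Krt18 -0.68, with an offset of 50 Cldn8 was 0.59, and without Pax6-/- array 3 Cldn8 was 0.61, Krt18 -0.19 and Cldn12 -0.53. Krt18 was -0.20 without wild-type array 3. Members higher at an unadjusted p under 0.05 numbered 3 to 5 when 1 array was left out, and members lower 1 to 2, against 4 and 2. The lower count was 1 with a detection p under 0.01 and 1 with every probe tested on its own. With arrays scaled to a common median, 3 members were higher and 3 lower, beside 10.5% of all genes in both directions together.

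Over all genes, the count of 12 became 7 with a common median, 6 with an offset of 50, 2 without background correction, 3 without a detection filter, 0 with genes above background on all 6 arrays, 7 with the authors' processed table and 0 to 2 when 1 array was left out. The replicate block gave 0 genes past the adjusted threshold and 5 members higher and 2 lower at an unadjusted p under 0.05. Same-numbered embryos of the genotypes did not deviate together (correlations of 0.0053, 0.0022 and -0.017), and not every embryo correlated best with its own number. With 3 arrays per genotype this cannot tell whether the numbers pair embryos, and the labels do not say that they do. At a detection p under 0.01 the group's probes above background numbered 29, 23 and 18 on the Pax6-/- arrays and 26, 16 and 18 on the wild-type arrays. The signals of Krt17, Krt10, Cldn10, Cldn19 and Dsg4 lay so near the lowest detected level that a difference in Pax6-/- may not be detectable.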
